A study of Mus musculus with 8 samples.

Results

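The genes described here are the mouse replication-dependent histone genes, taken as every row of the expression table whose symbol begins with Hist1h, Hist2h, Hist3h or Hist4h. The rule found 68 genes among 23235. By symbol, 6 carry the class name of the linker histone H1, 18 that of H2A, 19 H2B, 12 H3 and 13 H4. One of the H2B members, Hist3h2bb-ps, is by its symbol a pseudogene. In all, 54 of the 68 carry the name of the Hist1 cluster. The series measured RNA from granulosa cells, the layers around and in support of the oocyte in its ovarian follicle, of female C57BL/6 mice. It compared wild-type cells (WT) with cells of the genotype labelled CNOT6/6L KO. The label names a knockout of CNOT6 and CNOT6L, catalytic deadenylases in the CCR4-NOT complex, the main remover of mRNA poly(A) tails. Cells of each genotype were taken without treatment (0 h) and 44 h after PMSG, a gonadotropin given to make follicles grow, in 2 libraries per group and 8 in all. The labels give neither the PMSG dose nor the driver or allele behind the knockout, and they do not say whether the 2 libraries of a group came from separate animals, so the p-values rest on a spread between libraries that may be technical only.

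Replication-dependent histone genes supply the core and linker histones that package newly made DNA, and their mRNAs accumulate in S phase. They differ from almost all other mRNAs in that they end in a short stem-loop instead of a poly(A) tail. The stem-loop binding protein, SLBP, holds that end through processing, translation and decay, and the U7 ribonucleoprotein guides the cut behind it. Some histone genes can also give a polyadenylated mRNA when transcription runs past the stem-loop, as in cells that leave the cell cycle. The mRNA end matters for the measurement, because a library primed on poly(A) tails would see tailless histone mRNA poorly. The labels name total RNA as the molecule and 2 library kits, and do not say how mRNA was selected.

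The stem-loop is the feature that sets these mRNAs apart, so its letters are shown first. They are given for members that the results turn on and for most of its forms. In the transcript models of GENCODE M21, all 68 members were found by symbol, and 44 of them held the letters GGNNCTTTTNNGNNCC on the sense strand, against 0.399% of the other 21810 protein-coding genes. A further 12 members have models that stop at the coding part and cannot show it. Capitals mark the stem-loop in the sequences of Hist1h1c, Hist3h2a, Hist1h4d, Hist1h4c, Hist1h4i, Hist2h2ac and Hist1h4j.
Hist1h1c: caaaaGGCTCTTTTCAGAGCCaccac
Hist3h2a: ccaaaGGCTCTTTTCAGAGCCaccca
Hist1h4d: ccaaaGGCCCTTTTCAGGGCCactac
Hist1h4c: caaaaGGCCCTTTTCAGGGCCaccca
Hist1h4i: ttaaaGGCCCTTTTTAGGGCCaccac
Hist2h2ac: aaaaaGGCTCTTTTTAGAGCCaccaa
Hist1h4j: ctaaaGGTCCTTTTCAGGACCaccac
The form of Hist1h1c and Hist3h2a was present in 26 members from the H1, H2A, H2B and H3 classes. The form of Hist1h4d and Hist1h4c was present in 7 members, all of them H4 genes. The form of Hist1h4i was shared with Hist2h4, that of Hist1h4j with Hist1h4b, and that of Hist2h2ac was found in no other member. Another form, in which AA follows CTTTT, is not printed. It was present in 6 members: Hist1h1t, Hist1h2bb, Hist1h2bk, Hist1h3c, Hist1h3e and Hist1h3f.

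The models also differ in what follows the stem-loop. Of the 44 members with the letters, 22 have a model that runs on for more than 100 bases after them, up to 4884 bases in Hist1h1d. A poly(A) signal, AATAAA or ATTAAA in the last 40 bases of a model, was present in 11 of those 22 and in 2 of the 22 that end sooner. Over all 68 members it was present in 17, or 25%, against 79.2% of protein-coding genes. The limit of 100 bases was chosen after the values were seen, and a model of the reference says nothing about which end was made in these cells.

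Histone mRNA made up a small share of every library. The summed level of the 68 genes, in FPKM (fragments scaled to transcript length and library depth), was 156 and 196 in untreated WT and 223 and 227 in WT after PMSG. In the knockout it was 251 and 183 at 0 h and 191 and 224 at 44 h. These sums were 0.0220% to 0.0372% of the summed FPKM of all genes. The 2 untreated WT libraries were not both below the others: the knockout libraries at 0 h replicate 2 and 44 h replicate 1 lay between them.

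The replication-independent histones, which serve chromatin outside S phase and have ordinary polyadenylated mRNAs, were far higher. The 14 such genes in the table summed to 6605 to 8794 FPKM per library, 26.3 to 46.0 times the 68 members together. H2afz, which encodes H2A.Z, had a mean of 3209 FPKM, and H3f3b, which encodes H3.3, had 1898. H1foo, the linker histone of the oocyte, had 1003, and Slbp itself had 531. The most abundant member had 56.0. All of these levels are per length, on the FPKM scale. How much of the gap lies in the cells and how much in the capture of tailless mRNA was not tested.

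A few members carried most of the histone signal in FPKM, a scale that weights each fragment by model length. Counted in fragments the order differs, as given below. Hist1h2bc, an H2B gene, gave 18.4% to 34.5% of the histone sum in a library. Together with Hist1h4d, Hist3h2a, Hist1h2aa, Hist1h1b, Hist1h1c, Hist1h4i and Hist1h2ae it made up the 8 members whose mean reached 5 FPKM, and these 8 gave 68.01% to 82.0% of the sum. Of the 8, the 5 with stem-loop letters (Hist1h4d, Hist3h2a, Hist1h1c, Hist1h4i and Hist1h2ae) all have models that run on for more than 100 bases after it. The highest mean among the 22 members whose models end sooner was 3.85 FPKM, that of Hist1h2bm. The medians of the 2 sets were close, at 0.772 and 0.602 FPKM, so the difference was in the top members. The ends are those of GENCODE M21, while the FPKM rest on the authors' annotation, whose models need not run on. Hist1h4d, the highest of the 5, had the same FPKM per fragment as Hist1h4k (0.719), whose GENCODE M21 model stops at the coding part. The level of Hist1h4d thus cannot be assigned to a model that runs on.

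**Figure D1:**
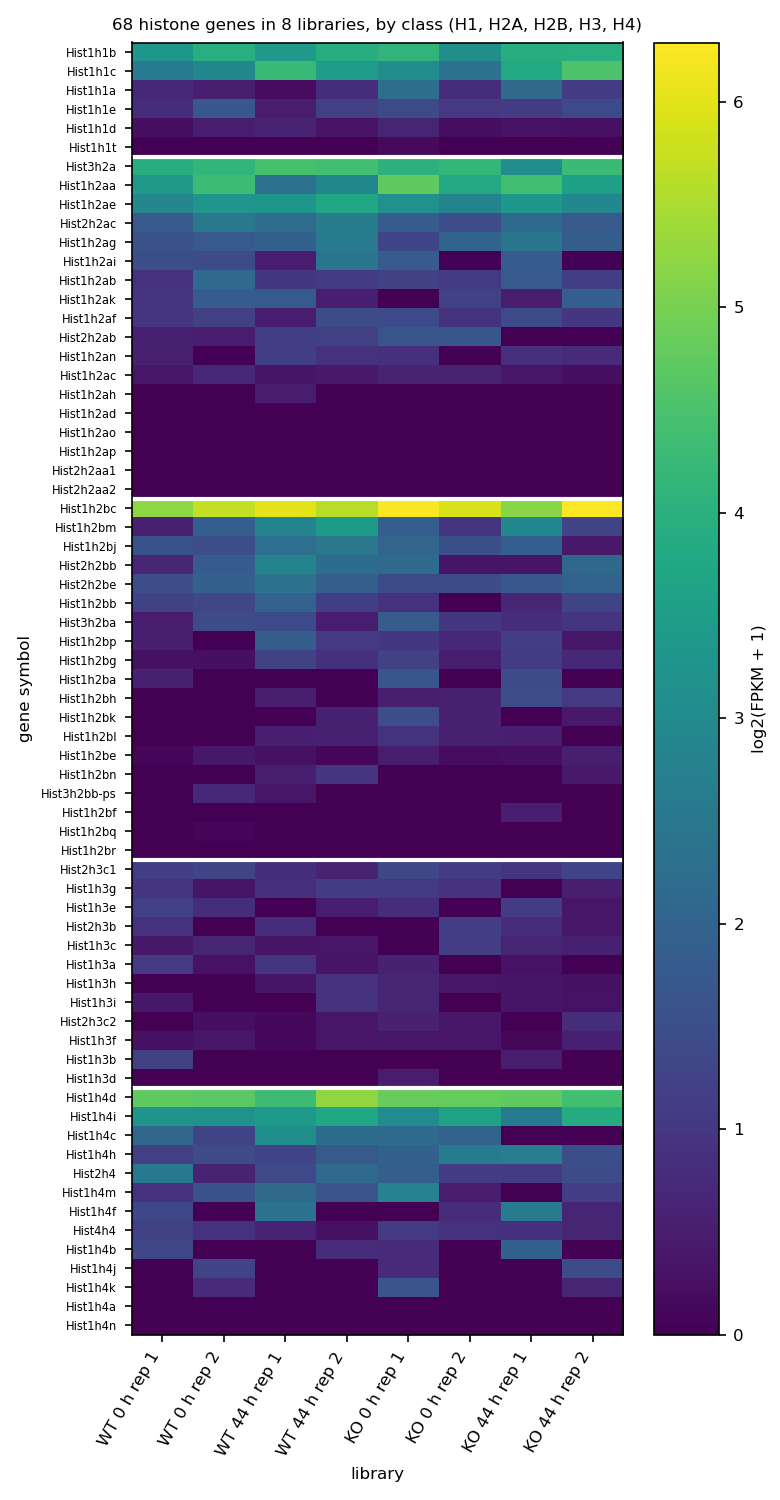
Level of each of the 68 histone genes (rows, grouped by class and ordered by mean within it) in each of the 8 libraries (columns), as log2(FPKM + 1). Hist1h2bc is the brightest row in every library, each class has 1 to 3 bright rows except H3, and 8 rows are at 0 throughout.

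At the other end, 8 members were listed at 0 FPKM in all 8 libraries: Hist1h2ad, Hist1h2ao, Hist1h2ap, Hist2h2aa1, Hist2h2aa2, Hist1h2br, Hist1h4a and Hist1h4n. A library had between 18 and 26 members at 0. Most of them are near-copies of other histone genes. The share of their 150-base windows (the read length) that also occurs in another gene's transcript had a median of 85.6%, with a range of 23.1% to 100%. In the other 60 members the median was 22.5%, and 15 members shared no window, among them Hist1h4d, Hist1h2aa, Hist1h1b, Hist1h1c and Hist2h2ab. The levels of members with many shared windows are uncertain, because the authors' assignment of reads between copies can move reads from one to another. The windows are those of GENCODE M21, and the models behind the authors' FPKM can differ from them. Hist3h2a shares 28.0% of its windows with Trim17, a neighbouring gene, so part of its level may belong to that gene.

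**Figure D2:**
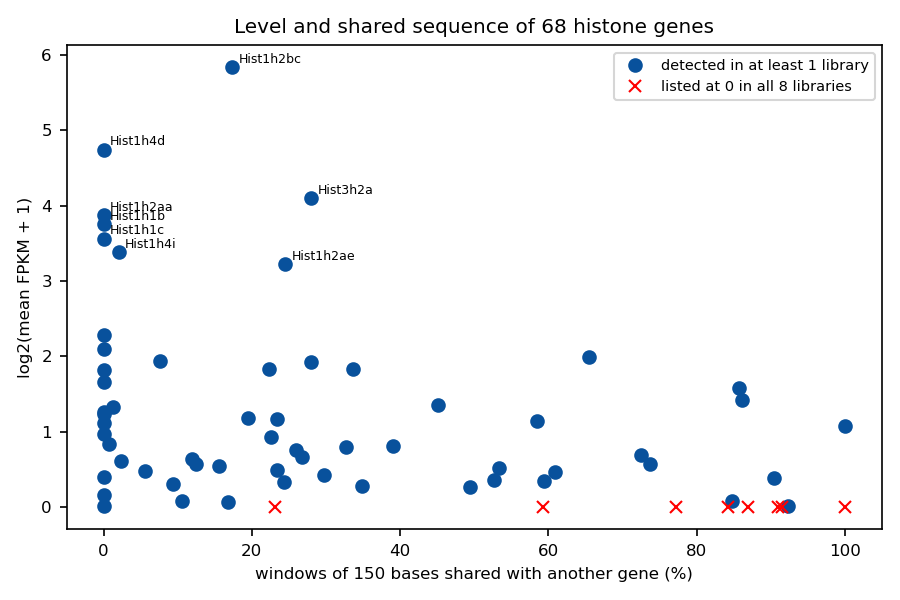
Percent of 150-base windows shared with another gene (horizontal) and log2(mean FPKM + 1) over 8 libraries (vertical) for the 68 histone genes, with crosses for the 8 listed at 0 in all libraries. Those 8 lie between 23.1% and 100%, and all members with a mean of at least 5 FPKM lie at or under 28.0%.

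The FPKM of these genes rested on few fragments. In 55 members the 8 values fell on whole multiples of one step after a depth factor per library was divided out (within 0.03 of a whole number), and the smallest whole numbers that fit are taken as fragments, the read pairs behind the value. In 341 of their 440 values (77.5%) fewer than 10 fragments were present, and the median was 3. A library had 379 to 622 such fragments over all these members. The most were those of Hist2h2be, 629 over the 8 libraries at 0.0330 FPKM each, for a mean of 2.53 FPKM. Hist1h4d had 288 at 0.719 FPKM each, for a mean of 25.8 FPKM. One fragment was worth 0.421 FPKM in 5 H2A genes, 0.449 FPKM in 7 H2B genes and 0.719 FPKM in 6 H4 genes. A low H4 value thus moves in larger steps. That H4 step was the same in Hist1h4d, Hist1h4c and Hist1h4k, whose GENCODE M21 models hold 1138, 820 and 312 bases. The lengths behind the FPKM of these genes were therefore not all those of GENCODE M21. Hist1h1c, Hist1h1e, Hist1h2bc, Hist1h2be and Hist3h2a gave no whole steps, and their depth is unknown. Intervals from these fragments cover counting error only.

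Differences were tested with limma on log2(FPKM + 1) over the 13688 genes with at least 1 FPKM in at least 2 libraries. Of the 68 members, 38 passed that filter: 4 of H1, 10 of H2A, 11 of H2B, 3 of H3 and 10 of H4. The 30 others, among them 9 of the 12 H3 genes, were not tested. A gene was called at a Benjamini-Hochberg adjusted p under 0.05 over all genes tested.

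The library of knockout cells at 44 h, replicate 1, stood apart from the other libraries given PMSG. Its Cyp11a1, a steroidogenic gene that PMSG raises, was 129 FPKM against 2508 to 4451 in the other 3 libraries at 44 h. Between it and replicate 2, 15 of the 38 members (39.5%) differed by 2-fold or more on the log2(FPKM + 1) scale, against 11.2% of all genes. In the other groups 3 to 7 members did (7.89% to 18.4%), against 2.32% to 3.16% of all genes. Histone genes thus varied more between replicates than the table as a whole in every group, in a comparison not matched for level. Cnot6, one target of the knockout, was 11.7 and 12.01 FPKM in the untreated knockout against 29.1 and 18.4 in untreated WT, and 26.7 and 17.4 at 44 h against 26.0 and 26.9. Cnot6l, the other target, was 4.69 and 1.97 FPKM in the untreated knockout against 6.11 and 7.07, and 2.01 and 1.61 at 44 h against 4.20 and 2.63. Both knockout libraries were thus below both WT libraries of the same time for Cnot6l at both times and for Cnot6 at 0 h, and the genotypes overlapped for Cnot6 at 44 h, through the library that stood apart. The labels do not say which stretch of each mRNA the knockout removes.

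The labelled cell type was checked with marker lists. The 12 granulosa markers summed to 13419 to 29408 FPKM per library, and the lists of other cell types to 226 to 1172 for immune cells, 113 to 374 for theca and stroma, 18.6 to 51.9 for endothelium, 126 to 751 for epithelium and oviduct, and 40.2 to 953 for erythroid cells, with no gene of these lists at 0 in all libraries. None of these genes was called in any comparison, and oocyte markers are given below beside Hist1h2aa. A list of RNAs without a poly(A) tail other than histone mRNA, led by Malat1 with a mean of 886 FPKM, summed to 667 to 2674 FPKM. None of its 9 tested genes was called, and 6 of the 19 in the table were at 0 throughout.

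The linker histones H1 bind the DNA between nucleosomes. Hist1h1b was 9.04 and 14.7 FPKM in untreated WT, 9.46 and 14.0 in WT after PMSG, 16.3 and 7.81 in the untreated knockout, and 14.2 and 14.5 in the knockout after PMSG. Most groups overlapped, the 2 groups at 44 h lay next to each other, and the untreated knockout libraries were more than 2-fold apart.

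Hist1h1c, the H1 gene with a model that runs on for 840 bases after its stem-loop and ends with a poly(A) signal, was higher after PMSG in both genotypes without passing the test. Its FPKM was 5.07 and 6.60 in untreated WT and 18.0 and 9.98 in WT after PMSG. In the knockout it was 7.49 and 4.04 at 0 h and 13.2 and 22.1 at 44 h. All 4 libraries at 44 h lay above all 4 at 0 h. The difference was 1.09 ± 0.39 (SE) on the log2(FPKM + 1) scale in WT, with a limma adjusted p of 0.159, and 1.47 ± 0.39 in the knockout, with an adjusted p of 0.123. H1f0, the replication-independent linker histone of resting cells, stood beside it with 99.0 and 99.4 FPKM in untreated WT and 339 and 258 at 44 h. Its difference in WT was 1.57 ± 0.28, with a limma adjusted p of 0.0810. In the knockout it was 126 and 97.9 FPKM at 0 h and 185 and 317 at 44 h. The difference there was 1.12 ± 0.28, with a limma adjusted p of 0.115.

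Hist1h1a and Hist1h1e were near the filter. Hist1h1a was 0.649 and 0.442 FPKM in untreated WT and 0.143 and 0.756 at 44 h, and in the knockout it was 3.80 and 0.765 at 0 h and 3.51 and 1.17 at 44 h. Every knockout library was thus above every WT library, by little in 1 of them. Hist1h1e was 0.397 to 2.25 FPKM, with both extremes in WT. The differences of Hist1h1a between genotypes had limma adjusted p-values of 0.661 at 0 h and 0.538 at 44 h.

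Among the H2A genes, Hist1h2aa encodes TH2A, a variant known from testis and oocyte. It was 9.47 and 18.9 FPKM in untreated WT, 4.17 and 6.61 in WT after PMSG, 26.0 and 12.9 in the untreated knockout, and 20.03 and 10.9 in the knockout after PMSG. At 44 h both knockout libraries were above both WT libraries, and in WT both libraries at 44 h were below both at 0 h, but no difference passed the test. It was 1.33 ± 0.47 (SE) on the log2(FPKM + 1) scale between genotypes at 44 h (limma adjusted p = 0.497) and -1.20 ± 0.47 from 0 h to 44 h in WT (adjusted p = 0.179).

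Oocyte marker levels differed between the same groups. They also differed between genotypes at 0 h and between times in the knockout, where the groups of Hist1h2aa overlapped. The 21 oocyte markers in the table summed to 2490 and 4298 FPKM in untreated WT, 1403 and 1381 in WT after PMSG, 7147 and 5960 in the untreated knockout, and 3241 and 1950 in the knockout after PMSG. All 20 tested markers were higher in the knockout at both times, with a median difference of 0.95 at 0 h and 0.83 at 44 h, and no marker passed the test in either. From 0 h to 44 h all 20 were lower in both genotypes, and 1 of them, Nlrp5 in the knockout, was called. The median over time in the knockout was -1.28 with all libraries. It was -1.71 without the library that stood apart and -0.95 without the other knockout library at 44 h. Between genotypes at 44 h the corresponding medians without these libraries were 0.40 and 1.24. H1foo, the oocyte linker histone, followed the same order, from 404 and 448 FPKM in WT after PMSG to 1874 and 1745 in the untreated knockout. None of the markers was at 0 in all libraries, and the part of oocyte RNA in the Hist1h2aa level was not tested. In such bulk samples fewer cells of a type and less RNA per cell cannot be told apart. Hist1h2ba, which encodes the H2B partner of TH2A and shares a promoter region with Hist1h2aa, rested on 10 fragments in all, 1 of them in untreated WT, 5 in the untreated knockout replicate 1 and 4 at 44 h replicate 1.

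The promoter of Hist1h2aa is printed because it had the largest difference between genotypes at 44 h of the 8 abundant members, and that of Hist2h2ab because it was the one member called. Each sequence is the 200 bases before the RefSeq start of the gene, on the plus strand of GRCm38.p6, which is a later build than the one the authors named. The Hist1h2aa sequence lies at chr13:23934237-23934436 and the Hist2h2ab sequence at chr3:96219685-96219884. Capitals mark the TATA box letters TATAAA, the NF-Y site letters CCAAT and the octamer ATTTGCAT on either strand.
Hist1h2aa: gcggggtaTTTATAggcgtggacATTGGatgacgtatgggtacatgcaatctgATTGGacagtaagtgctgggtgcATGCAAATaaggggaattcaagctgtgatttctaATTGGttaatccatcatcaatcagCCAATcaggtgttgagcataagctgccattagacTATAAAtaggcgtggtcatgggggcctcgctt
Hist2h2ab: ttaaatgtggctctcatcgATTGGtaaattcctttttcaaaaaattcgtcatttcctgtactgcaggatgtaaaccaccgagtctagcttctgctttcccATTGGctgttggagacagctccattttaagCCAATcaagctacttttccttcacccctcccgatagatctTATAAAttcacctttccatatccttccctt
The sense TATAAA begins 32 bases before the start in Hist1h2aa and 30 in Hist2h2ab. The first 120 bases printed for Hist1h2aa also lie within 200 bases before the start of Hist1h2ba, which is read from the opposite strand, and they hold the octamer.

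These motifs were frequent in the members' promoters. Windows ran from 250 bases before to 50 after the start and were matched for 61 members. The reference for all 3 motifs was the whole RefSeq promoter set of 27025, not only the genes of the expression table. TATAAA was in 57.4% of the members' promoters on either strand against 14.2% of that set. CCAAT, the site of NF-Y, was in 85.2% against 37.9%. It was in every promoter matched for H1, H2A, H2B and H3 and in 3 of 12 for H4. The octamer ATTTGCAT, the site of OCT1, was in 21.3% against 1.75%, in 7 of 17 H2A and 6 of 16 H2B promoters and in none of the other classes. A match is a description of letters and not a bound site.

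Hist2h2ab, an H2A gene of the Hist2 cluster, was the only member called in any of the 5 comparisons, from 0 h to 44 h in the knockout, where 0.139% of all genes were called. It was 0.466 and 0.423 FPKM in untreated WT, 1.23 and 1.30 in WT after PMSG, 2.098 and 2.197 in the untreated knockout, and listed at 0 in both knockout libraries at 44 h. In fragments this was 1 and 1, 3 and 3, 5 and 5, and 0 and 0. No group overlapped another, and replicates held the same number of fragments in each group. From 0 h to 44 h in the knockout it fell by 1.65 on the log2(FPKM + 1) scale (SE 0.18, limma adjusted p = 0.0473), a value that depends on the pseudocount.

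Counting error alone is wide at this depth. The 10 fragments in the untreated knockout have an exact Poisson 95% interval of 4.80 to 18.4, and the 0 at 44 h allows up to 3.69. The difference of the PMSG change between genotypes was -2.30 ± 0.26 (SE), with a limma adjusted p of 0.0653. The call rested on the pooled spread: the adjusted p was 0.272 when the 4 knockout libraries were fitted alone, and it was above 0.05 when any library but knockout 44 h replicate 1 was left out, up to 0.282 without knockout 0 h replicate 2. At 0 h the difference between genotypes was 1.12 ± 0.18 (adjusted p = 0.267).

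**Figure D3:**
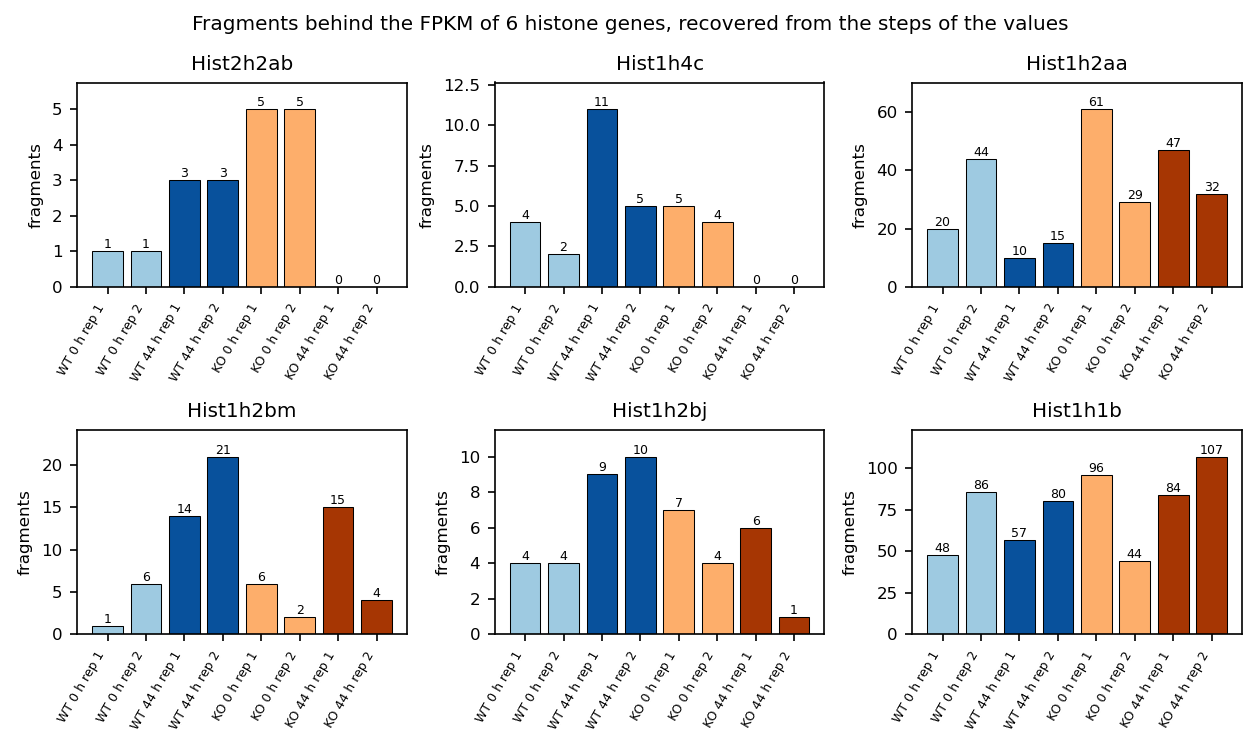
Fragments per library (bars, with the number above each) for 6 histone genes, coloured by group. Hist2h2ab and Hist1h4c have 0 fragments in both knockout libraries at 44 h and at most 5 and 11 elsewhere, while Hist1h1b has 44 to 107 with groups that overlap.

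The other abundant H2A genes varied less. Hist3h2a was 14.1 and 16.5 FPKM in untreated WT, 20.9 and 19.9 in WT after PMSG, 15.4 and 16.8 in the untreated knockout, and 7.42 and 18.6 in the knockout after PMSG. The lowest value was in the library that stood apart. Hist1h2ae was 6.15 to 12.3 FPKM over the 8 libraries, and the genotypes overlapped at each time. Hist2h2ac was 2.37 and 4.72 FPKM in untreated WT, 3.76 and 5.29 in WT after PMSG, 2.56 and 1.79 in the untreated knockout, and 3.41 and 2.39 in the knockout after PMSG. Hist1h2ab was 0.876 to 3.44 FPKM, with both extremes in untreated WT.

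Of the H2B genes, Hist1h2bc was 36.2 and 51.4 FPKM in untreated WT, 64.4 and 48.1 in WT after PMSG, 75.7 and 59.5 in the untreated knockout, and 35.3 and 77.2 in the knockout after PMSG. Both knockout libraries at 0 h were above both WT libraries, by 0.63 ± 0.37 (SE) on the log2(FPKM + 1) scale with a limma adjusted p of 0.678. The knockout libraries at 44 h were more than 2-fold apart, with replicate 1 the lowest of all 8.

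Hist1h2bm was 0.497 and 2.71 FPKM in untreated WT and 6.14 and 9.72 in WT after PMSG, and in the knockout 2.69 and 0.938 at 0 h and 6.71 and 1.43 at 44 h. The WT libraries rested on 1 and 6 fragments at 0 h and 14 and 21 at 44 h. The difference in WT was 1.89 ± 0.66, the largest of any tested member in that comparison, with a limma adjusted p of 0.152. Hist1h2bj had 3.95 and 4.63 FPKM in WT after PMSG and 2.69 and 0.358 in the knockout, with a limma adjusted p of 0.497. Hist1h2bh rested on 10 fragments in all, none of them from untreated WT. It was 1.79 and 1.07 FPKM in the knockout after PMSG against 0.438 and 0 in WT, a difference of 1.00 ± 0.25 with an adjusted p of 0.457.

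Further H2B genes were measured at a few fragments. Hist2h2bb was 0.610 and 2.49 FPKM in untreated WT, 6.18 and 3.69 in WT after PMSG, 3.57 and 0.287 in the untreated knockout, and 0.274 and 3.29 in the knockout after PMSG. The 2 libraries of each knockout group thus lay on either side of both untreated WT libraries. Hist1h2bp was 0.452 and 0 FPKM in untreated WT and 2.59 and 1.05 in WT after PMSG, with a difference of 1.17 ± 0.38 (SE) and a limma adjusted p of 0.138. Hist1h2bb was 1.34 and 1.51 FPKM in untreated WT and 0.902 and 0 in the untreated knockout, with an adjusted p of 0.592.

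**Figure D4:**
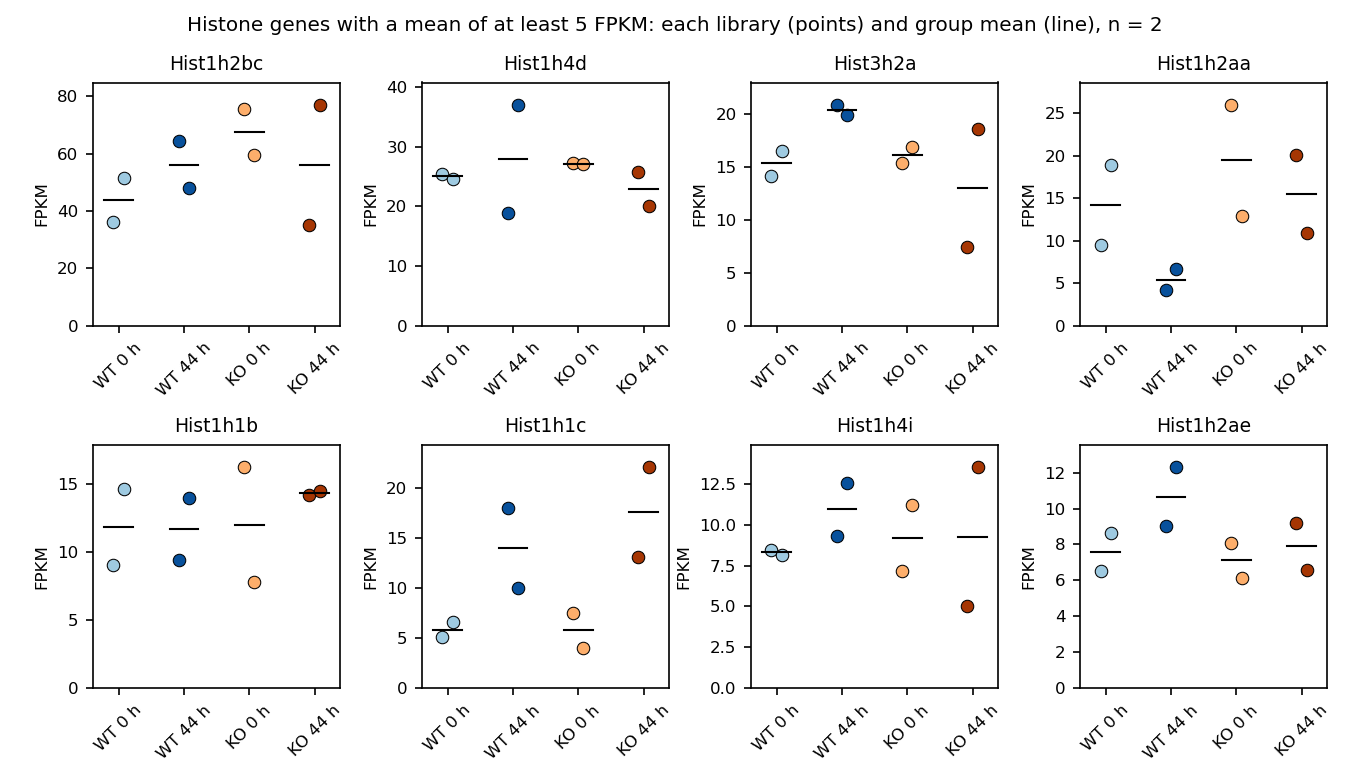
FPKM of the 8 histone genes with a mean of at least 5 FPKM, in each library (points) with the group mean (line), n = 2 per group. Hist1h1c is higher in all 4 libraries at 44 h than in all 4 at 0 h, and the 2 knockout libraries at 44 h lie far apart for Hist1h2bc, Hist3h2a and Hist1h4i.

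The H3 genes were the lowest class, with 5.13 FPKM summed over the means of 12 genes, or 2.48% of the histone sum, although a nucleosome holds as much H3 as H4. The replication-independent H3 genes H3f3a and H3f3b had means of 379 and 1898 FPKM. Hist2h3c1, the highest H3 member, was 1.20 and 1.43 FPKM in untreated WT, 0.767 and 0.506 in WT after PMSG, 1.52 and 1.13 in the untreated knockout, and 0.930 and 1.41 in the knockout after PMSG. All of its windows also occur in other gene models, namely Gm20634, Hist2h3c2 or Hist2h3b, so its level is uncertain, and whether reads were shared was not tested. Hist1h3g was 0.809 and 1.14 FPKM in WT after PMSG and 0 and 0.441 in the knockout, with a limma adjusted p of 0.506. Hist1h3e, on 12 fragments in all, was 1.28 and 0.772 FPKM in untreated WT and 0 and 0.396 in WT after PMSG, and Hist2h3b, on 10 fragments, was not tested.

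The H4 genes encode one and the same protein in textbook accounts, from transcripts that differ in sequence. The models of Hist1h4d and Hist2h4 share no window with another gene, so the differences are not only outside the coding part. Hist1h4d was the highest, at 25.5 and 24.5 FPKM in untreated WT, 18.9 and 37.1 in WT after PMSG, 27.2 and 27.0 in the untreated knockout, and 25.8 and 20.1 in the knockout after PMSG. The spread of the WT libraries at 44 h spanned all other groups. Hist1h4i was 5.001 to 13.5 FPKM, and both extremes were in the knockout after PMSG.

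Hist1h4c was 3.18 and 1.44 FPKM in untreated WT, 7.72 and 3.71 in WT after PMSG, 3.58 and 3.001 in the untreated knockout, and listed at 0 in both knockout libraries at 44 h. The fragments were 4 and 2, 11 and 5, 5 and 4, and 0 and 0, so both WT libraries at 44 h lay above and both knockout libraries below their own 0 h values. The exact Poisson 95% interval was 9.15 to 26.0 for the 16 fragments in WT at 44 h and 4.12 to 17.1 for the 9 in the untreated knockout, and the 0 at 44 h in the knockout allows up to 3.69. The limma adjusted p was 0.280 between genotypes at 44 h, 0.0891 from 0 h to 44 h in the knockout, and 0.773 for the difference of the PMSG change. Hist1h4h was 1.29 and 1.75 FPKM in untreated WT and 2.90 and 5.15 in the untreated knockout, with an adjusted p of 0.533. Hist4h4, the lone member of its cluster, was 1.29 and 0.867 FPKM in untreated WT and 0.552 and 0.215 in WT after PMSG, a difference of -0.59 ± 0.23 (SE) with an adjusted p of 0.179.

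Across the class as a whole, no member was called between genotypes at 0 h, where limma called 0.0365% of all genes. The median difference of the 38 tested members was 0.05 on the log2(FPKM + 1) scale (-0.07 with quantile normalization and -0.01 with median-of-ratios scaling), beside 0.03 over all genes, and 22 were higher and 16 lower, or 57.9% above 0 against 54.7% of all genes. At an unadjusted p under 0.05 there was 1 member, Hist2h2ab, or 2.63%, against 9.69% of all genes. The 2 genotypes did not overlap in 11 members (28.9%), against 46.4% of all genes. Of these 8 were higher and 3 lower in the knockout, where 27.3% and 19.1% of all genes were.

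At 44 h no member was called between genotypes, where 0.0219% of all genes were. The median was -0.10, beside 0.05 over all genes, with 17 higher and 21 lower in the knockout, or 44.7% above 0 against 55.5%. At an unadjusted p under 0.05 there were 6 members, or 15.8%, against 9.79% of all genes. The genotypes did not overlap in 15 members (39.5%), against 39.1% of all genes, with 7 higher and 8 lower, where 23.9% and 15.1% of all genes were. The 4 tested H1 genes were all above 0, with a median of 0.38, and 9 of the 11 H2B genes were below 0, with a median of -0.27.

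From 0 h to 44 h in WT no member was called, where 0.0804% of all genes were. The median was 0.28, beside -0.13 over all genes, with 23 higher and 15 lower at 44 h, or 60.5% above 0 against 38.1%. The median H2B difference was 0.43, with 9 of 11 above 0. At an unadjusted p under 0.05 there were 8 members, or 21.1%, against 24.1% of all genes. The times did not overlap in 17 members (44.7%), against 63.1% of all genes, and of these 13 were higher and 4 lower, where 22.5% and 40.6% of all genes were. The typical spread of the members' median between replicate libraries was 0.30, as large as the median itself. Some marker lists of other cell types lay above 0 in the same libraries. Higher at 44 h were 11 of 12 theca and stroma markers (median 0.95), 6 of 7 endothelial markers (median 0.81) and 10 of 11 epithelium and oviduct markers (median 0.60). So were 10 of 12 granulosa markers (median 0.45) and 13 of 15 immune markers (median 0.23). All 20 oocyte markers were lower (median -1.21), and of the erythroid markers 2 were higher and 2 lower. None of these markers was called, and their part in the histone values was not tested. The spread is pooled over all groups, and when replicate 1 of the knockout at 44 h was left out limma called 1367 genes in this comparison of WT libraries (1360 without replicate 2), still with no member among them.

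In the knockout the same comparison called 1 member, Hist2h2ab, of 38, where 0.139% of all genes were called. The median was 0.02, beside -0.11 over all genes, and 19 members were on each side of 0, or 50% above it against 39.3%. At an unadjusted p under 0.05 there were 5 members, or 13.2%, against 21.1% of all genes, and the times did not overlap in 9 members (23.7%), against 48.4%. Of these 3 were higher and 6 lower, where 14.3% and 34.1% of all genes were. Without replicate 1 of the knockout at 44 h, the library that stood apart, limma called 1223 genes and 4 members, Hist1h1c, Hist1h2bj, Hist1h4c and Hist2h2ab, and the median was -0.06. Between genotypes at 44 h it called no member without that library, with a median of -0.21. For the PMSG change in the knockout minus that in WT no member was called, where 0.0438% of all genes were. Its median was -0.02, with 47.4% of members above 0 against 49.2%, and 3 members (7.89%) had an unadjusted p under 0.05, namely Hist2h2ab, Hist1h4c and Hist1h3g, against 1.82% of all genes. The comparisons share libraries with one another, so their values are not independent.

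**Figure D5:**
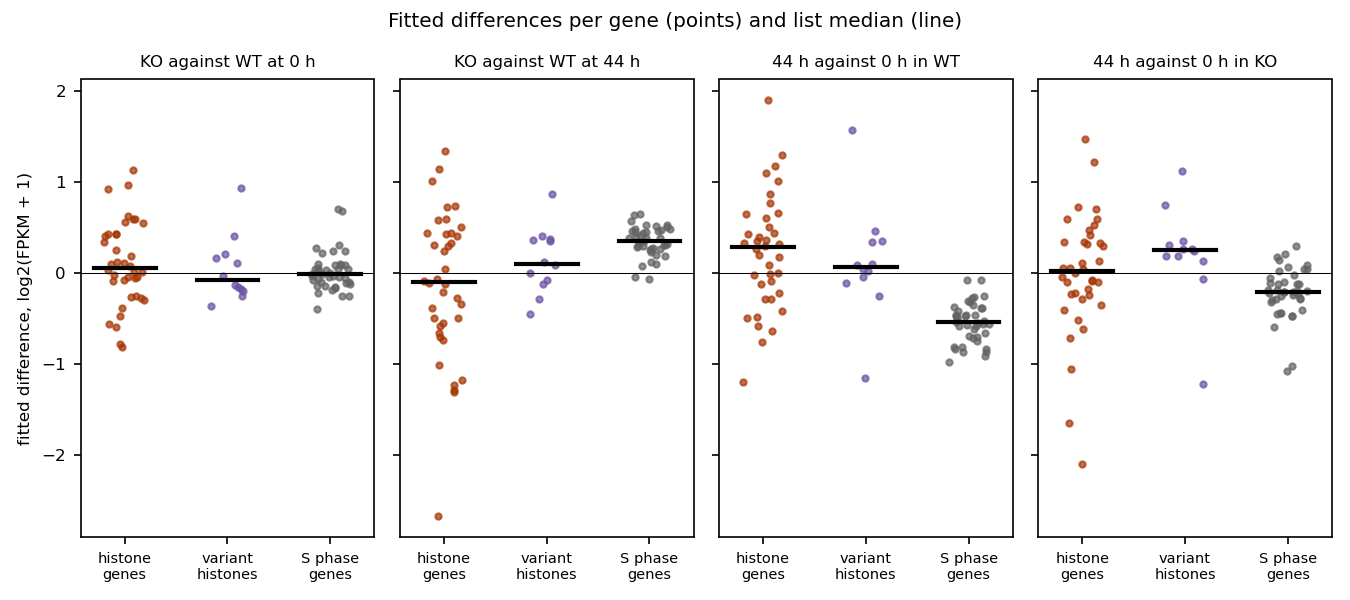
Fitted difference of each tested gene (points) on the log2(FPKM + 1) scale and the median (line) for the histone genes (38), the replication-independent variant histones (12) and the S phase genes (41), in the 4 comparisons between 2 groups. In WT from 0 h to 44 h the histone median is 0.28 and that of the S phase genes -0.54.

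Genes of DNA replication are the usual companions of these histones. From 0 h to 44 h in WT all 41 S phase genes had a fitted difference below 0, with a median of -0.54, and none passed the test; with median-of-ratios scaling 39 of 41 were below 0. The times did not overlap in 40 of 41, against 63.1% of all genes, and 22 had an unadjusted p under 0.05, or 53.7% against 24.1%. Their calls, like those of all genes, depend on the spread pooled over the groups. The histone members' median had the opposite sign in the same libraries, and the difference between the 2 lists was not tested. Scaling matters here: median-of-ratios scaling moved the median of all genes over time from -0.13 to -0.01 in WT and from -0.11 to 0.03 in the knockout. Relative to all genes, the members' median in WT was 0.41 as deposited and 0.35 after that scaling, and that of the S phase genes was -0.41 and -0.39. In the knockout the S phase median was -0.21, with 32 of 41 below 0 (25 after median-of-ratios scaling), and between genotypes at 44 h 39 of 41 were above 0 with a median of 0.35, against 55.5% of all genes, and none was called. Without the library that stood apart, 34 of 41 were above 0 with a median of 0.17. The S phase genes summed to 2407 FPKM in that library and 1825 in the other knockout library at 44 h, against 1563 and 1781 in WT.

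The factors that make and remove histone mRNA were well measured. Of the 25 fixed in the list 24 were in the table, all were tested, and none was called in any comparison with all 8 libraries. Slbp was 564 and 577 FPKM in untreated WT, 334 and 358 in WT after PMSG, 637 and 828 in the untreated knockout, and 507 and 439 in the knockout after PMSG. The times did not overlap in either genotype, with a difference of -0.72 ± 0.18 (SE, limma adjusted p = 0.109) in WT and -0.62 ± 0.18 (adjusted p = 0.137) in the knockout. The group means of Slbp had the order of those of the oocyte marker sums given above, and the part of oocyte RNA in its level was not tested. Zfp473, the U7-associated zinc finger protein, was 3.57 and 5.71 FPKM in untreated WT, 1.58 and 1.71 in WT after PMSG, 10.4 and 13.3 in the untreated knockout, and 4.25 and 3.24 in the knockout after PMSG. Its group means had the same order, and its largest difference was -1.43 ± 0.26 from 0 h to 44 h in the knockout (limma adjusted p = 0.0947). The U7 subunits Lsm10 and Lsm11 had means of 122 and 1.85 FPKM.

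For the highest member of each class, the genes with the most similar pattern over the 8 libraries were other than histone genes. Hist1h2bc was most like Syt5, Wdfy2 and Grb10, with Pearson correlations of log2(FPKM + 1) of 0.979, 0.966 and 0.953. Hist3h2a was most like Dffa, Sh3bgr and Vps45, at 0.983, 0.975 and 0.974. Hist1h4d was most like Tesk1, Ndufs7 and Alkbh7, at 0.935, 0.925 and 0.909, and Hist1h1b was most like 2310035K24Rik, Olfml1 and Hoxd3, at 0.935, 0.913 and 0.902. Hist2h3c1 was most like Sorl1, Nrp2 and Prr15, at 0.988, 0.980 and 0.962. These are the highest of 13688 genes over 8 points that share library and depth, and are given as a description.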

How the data were processed

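RNA of 8 granulosa cell libraries was sequenced as 150 bp paired reads, and the authors deposited one table of FPKM. The submitters' processing notes name TopHat2 2.1.1, Cufflinks 2.2.1 and mm9, and the gene annotation is not given in the sources used here, nor is a read filter. The members and gene lists were chosen with earlier results of these data known.

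The FPKM were analysed as log2(FPKM + 1) with limma 3.58.1 in R 4.3.3, one mean per group over 4 groups, with a mean-variance trend and Benjamini-Hochberg adjustment over 13688 genes. The test was checked on simulated data. Depth is known only relative to the median library, 0.904 to 1.25, from the steps of low values. Alternatives were another pseudocount, other filters, 2 normalizations, a robust fit, a replicate block, only the groups compared, and leaving out each library.

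Named members were the 4 highest per class, those called, and the 2 with the smallest p in each direction per comparison. Sequences are from GENCODE M21 and RefSeq. Deviations of same-numbered libraries had a Pearson r of -0.11 to -0.01. The numbers thus gave no sign of pairing, but a weak shared effect would not show in these values.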

Additional observations from a re-analysis of the deposited data

How the results depend on the processing

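With 2 libraries per group and few fragments in many members, single members could be called only on very small spreads. The median of 3 fragments per value covers the 55 members with whole steps, tested or not. No member was called between genotypes at 0 h or from 0 h to 44 h in WT under any alternative tried, nor without any 1 library. Between genotypes at 44 h the count was 0, and 1 (Hist1h4c) with a pseudocount of 0.1. It ranged from 0 to 3 when a library was left out, the 3 being Hist1h4c, Hist2h2ab and Hist3h2a without knockout 44 h replicate 2, when limma called 838 genes in all. From 0 h to 44 h in the knockout the count was 1. It was 2 with a pseudocount of 0.1, and 0 with a filter of 5 FPKM (which leaves Hist2h2ab untested), with quantile normalization, with the replicate block and with only the groups compared. It ranged from 0 to 4 when a library was left out, the 4 being Hist1h1c, Hist1h2bj, Hist1h4c and Hist2h2ab without knockout 44 h replicate 1, when 1223 genes were called. A group left with 1 library is assumed to vary like the others. For the difference of the PMSG change the count was 0, 1 with no filter, and 0 to 1 when a library was left out, and its median was -0.35 with the filter of 5 FPKM against -0.02. The adjusted p of Hist2h2ab in the knockout was 0.0621 with quantile normalization and 0.118 with the replicate block, which pairs libraries by their number. The median in WT from 0 h to 44 h stayed above 0, from 0.12 to 0.39, and those between genotypes at 0 h and over time in the knockout took either sign when a library was left out, from -0.16 to 0.33 and from -0.22 to 0.30.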
